A study of Mus musculus with 12 samples.

Results

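The myostatin, activin and follistatin system was described here through 9 genes chosen by gene name from the count table. They are the ligands Mstn, Gdf11, Inhba and Inhbb, the secreted antagonists Fst and Fstl3, and the receptors Acvr2a, Acvr2b and Acvr1b. The table held 37748 genes, and all 9 members passed the filter on low counts that left 16679 genes for testing. RNA-seq was performed on gastrocnemius muscle of 12 mice, 3 in each of 4 groups, at 13 weeks of age. Control mice (ACTA1-MCM/+; mice 1127, 1246 and 1349) carried the tamoxifen (TMX)-inducible Cre alone, and FLExD mice (FLExDUX4/+; mice 1358, 1367 and 1378) carried the DUX4 transgene alone. Both single-transgenic groups were labelled as given no tamoxifen. The labels differ in their names, since the sample descriptions give FLExD mice a mild and the 5 mg/kg mice a moderate pathology while the treatment protocol calls the 5 mg/kg injection the mild model. That group is called moderate here. Bi-transgenic FLExDUX4/+;MCM/+ mice received 1 intraperitoneal injection of 5 mg/kg TMX in the moderate model (mice 1236, 1308 and 1331) or 2 injections of 10 mg/kg TMX on consecutive days in the severe model (mice 1047, 1066 and 1079), and muscle was taken on day 9 in both. The Cre is driven by the ACTA1 promoter in skeletal muscle, and the recombined transgene is transcribed from the Rosa26 promoter in a mosaic of fibers. Because no control received TMX, the drug, the combined genotype and the induction of DUX4 cannot be told apart in these comparisons.

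Myostatin, the product of Mstn, is a secreted TGF-beta family ligand made mainly by skeletal muscle fibers, and loss of it gives enlarged muscles. Myostatin, GDF11 and the activins (dimers of the Inhba and Inhbb products) bind a type II receptor, encoded by Acvr2a or Acvr2b, which recruits a type I receptor such as the product of Acvr1b and leads to phosphorylation of SMAD2 and SMAD3. Follistatin (Fst) and follistatin-like 3 (Fstl3) bind these ligands outside the cell and keep them from their receptors.

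In the GENCODE M21 annotation of GRCm38, Mstn lies on chromosome 1 from 53061640 to 53068079 on the plus strand, and no other gene overlaps it. Gdf11, its closest paralog, lies on chromosome 10 from 128882295 to 128891718 on the minus strand and is also free of overlap. Fst lies on chromosome 13 from 114452290 to 114458951 on the minus strand, Acvr2b on chromosome 9 from 119402118 to 119434995 and Acvr1b on chromosome 15 from 101174067 to 101213684, both on the plus strand. Fstl3 (chromosome 10, 79777272 to 79782630, plus strand) shares 46.2% of its exonic 50-base stretches with Prss57 on the opposite strand, and Acvr2a (chromosome 2, 48814109 to 48903269, plus strand) shares 6.98% with Orc4. The library protocol names no step that keeps the strand, so reads from such shared stretches cannot be assigned to 1 gene with certainty. For Fst and Inhba (chromosome 13, 16011851 to 16031621) the shared part was 1.40% and 0.537%. For Mstn, Gdf11, Inhbb (chromosome 1, 119415465 to 119422248), Acvr2b and Acvr1b it was 0.

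The promoters of Mstn and Gdf11 are shown because the proteins are close paralogs while the levels and fold changes of their RNAs differed. RefSeq entries on GRCm38.p6 were found for 8 of the 9 members, all but Fst. The 250 bases before each gene's start are given 5′ to 3′ on the gene's strand, and capitals mark E-boxes (CANNTG, which reads alike on both strands).
Mstn, chr1:53061390-53061639, plus strand: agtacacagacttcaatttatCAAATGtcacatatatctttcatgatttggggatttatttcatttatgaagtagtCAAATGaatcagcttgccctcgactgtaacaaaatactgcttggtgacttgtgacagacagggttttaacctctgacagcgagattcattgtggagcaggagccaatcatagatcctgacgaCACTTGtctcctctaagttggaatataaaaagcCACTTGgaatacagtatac
Gdf11, chr10:128891719-128891968, minus strand: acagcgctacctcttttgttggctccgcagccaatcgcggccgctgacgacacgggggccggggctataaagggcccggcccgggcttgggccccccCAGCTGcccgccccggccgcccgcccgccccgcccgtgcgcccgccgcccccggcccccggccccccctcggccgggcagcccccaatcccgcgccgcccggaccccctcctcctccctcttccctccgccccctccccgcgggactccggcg
The Mstn window had 4 E-boxes, 38.4% G+C and 3 CpG dinucleotides, and a TATAAA that begins at -29 from the start. The Gdf11 window had 1 E-box, 81.2% G+C, 33 CpG dinucleotides and a TATAAA at -185. Over all 32851 mouse promoters of the same length, 66.2% held at least 1 E-box and 12.4% a TATAAA on either strand, with medians of 52.4% G+C and 6 CpG dinucleotides. These letters describe the windows, and no binding was measured.

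Each library held between 23796902 and 29136403 expected counts, so that 3 counts correspond to 0.0676 to 0.155 CPM, the unit of library-size-scaled counts, after adjustment by the trimmed mean of M-values (TMM). The TMM factors ranged from 0.706 to 0.760 in the control and FLExD mice, from 1.06 to 1.13 in the moderate model and from 1.69 to 1.87 in the severe model. Library size alone, without these factors, put the median of all 16679 log2 fold changes against control at 0.65 (moderate) and 1.39 (severe), and TMM put it at 0.04 and 0.08. Levels given as CPM below are TMM-adjusted, and changes were called with edgeR's quasi-likelihood F-test where the Benjamini-Hochberg adjusted p (16679 genes) was under 0.05 and the log2 fold change, up or down, reached 0.5. These p-values rest on the spread between mice within groups, estimated for each gene over all 4 groups of 3 mice and moderated towards that of other genes.

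Against control, 5 of the 9 genes were called lower and 1 higher in the moderate model, and 5 were called lower and 2 higher in the severe model. Among all genes tested, 17.0% were called lower and 24.4% higher in the moderate model, and 27.9% lower and 32.9% higher in the severe model. The 9 genes had a median log2 fold change of -0.93 (moderate) and -1.05 (severe). In both models Mstn, Gdf11 and all 3 receptors fell and Fst rose, except that scaling by library size alone ended the calls of Gdf11 in severe mice and of Acvr2a in both models and put Acvr2a above control in severe mice. The mice of the moderate and control groups did not overlap for 6 of the 9 genes (61.0% of all genes), and those of the severe and control groups for 7 (75.0% of all genes).

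Mstn showed the largest fold change of the 9 genes. It was at 57.0, 45.5 and 89.0 CPM in control mice 1127, 1246 and 1349, at 5.49, 7.10 and 10.1 CPM in moderate mice 1236, 1308 and 1331, and at 2.32, 2.92 and 2.68 CPM in severe mice 1047, 1066 and 1079. Every control mouse was above every moderate mouse, and every moderate mouse above every severe mouse. The log2 fold change was -3.08 (SE 0.31, adjusted p = 1.25e-05) in the moderate model, 8.45-fold lower than control, and -4.59 (SE 0.34, adjusted p = 3.97e-07) in the severe model, 24.1-fold lower. The severe model was in turn 2.86-fold lower than the moderate model (log2 fold change -1.52, SE 0.33, adjusted p = 0.00337). With limma on log2(TPM + 1), in which TPM is abundance scaled for transcript length, that difference between the models was -0.63 and was not called (adjusted p = 0.0859). In bulk muscle, fewer fibers and less Mstn RNA per fiber cannot be told apart.

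**Figure D1:**
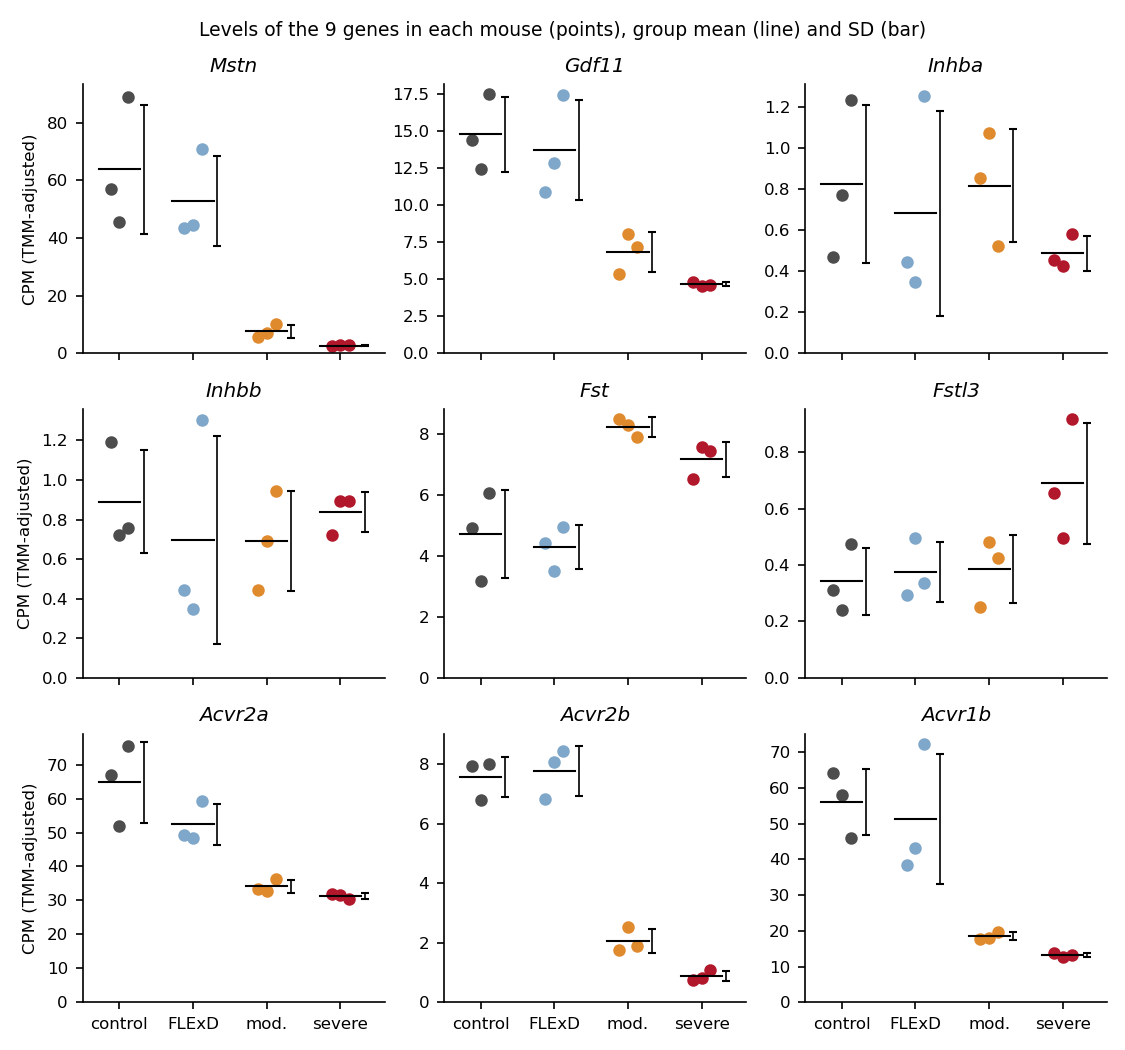
CPM (TMM-adjusted) of the 9 genes on the vertical axis in control, FLExD, moderate and severe mice, with each point 1 mouse, the line the group mean and the bar the SD (n = 3). Each panel has its own axis from 0; Mstn drops from 45.5 to 89.0 CPM in control mice to 2.32 to 2.92 CPM in severe mice, while Fst is higher in every moderate and severe mouse than in any control mouse.

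Gdf11, whose product acts through the same receptors, fell less. Control mice had 14.4, 12.4 and 17.5 CPM, moderate mice 5.36, 8.03 and 7.15 CPM and severe mice 4.82, 4.55 and 4.61 CPM, in the same order of mice. The 3 groups did not overlap, and the severe mice varied least (4.66 ± 0.143 CPM, SD, n = 3). The log2 fold change was -1.11 (SE 0.18, adjusted p = 1.7e-04) in the moderate and -1.66 (SE 0.19, adjusted p = 1.99e-06) in the severe model. Scaled by library size only, the severe value was -0.36 (adjusted p = 0.0987), and the call was lost. Between the severe and the moderate model Gdf11 differed by -0.55 (SE 0.19, adjusted p = 0.0247), a call lost without moderate mouse 1308 (-0.43, adjusted p = 0.104), without moderate mouse 1331 (-0.50, adjusted p = 0.0807) and without severe mouse 1047 (-0.58, adjusted p = 0.0536), 1066 (-0.53, adjusted p = 0.0622) or 1079 (-0.55, adjusted p = 0.0579). That difference also flipped to 0.15 with library size alone.

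The activin subunit genes were at low levels in every group. Inhba, which encodes the beta A subunit, was at 0.466, 0.771 and 1.23 CPM in control mice, 0.852, 1.07 and 0.522 CPM in moderate mice and 0.451, 0.425 and 0.580 CPM in severe mice. Inhbb, which encodes the beta B subunit, was at 1.19, 0.723 and 0.758 CPM, 0.442, 0.690 and 0.946 CPM, and 0.721, 0.896 and 0.894 CPM. The groups overlapped for both genes. For Inhba the log2 fold change was -0.03 (95% interval -0.99 to 0.93) in the moderate and -0.77 (-1.75 to 0.21) in the severe model, with adjusted p = 0.962 and 0.147. For Inhbb it was -0.36 (-1.28 to 0.56) and -0.08 (-0.96 to 0.79), with adjusted p = 0.511 and 0.864. Changes within these intervals were not detectable at this depth. Inhbb depended on the scaling, since library size alone put severe mice 1.21 above control (adjusted p = 0.0122). The sign of the uncalled Inhba value in severe mice depended on it too, with 0.52 under library size alone (adjusted p = 0.306).

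Fst was the antagonist that rose in both models. Control mice had 4.92, 3.18 and 6.07 CPM, moderate mice 8.52, 8.31 and 7.90 CPM and severe mice 6.52, 7.57 and 7.44 CPM. Each moderate and severe mouse was above the highest control mouse, 1349, though severe mouse 1047 was close to it. The log2 fold change was 0.80 (SE 0.19, adjusted p = 0.0023), or 1.74-fold, in the moderate model and 0.60 (SE 0.19, adjusted p = 0.00946), or 1.52-fold, in the severe model. Without control mouse 1246, the lowest for Fst, the severe value was 0.37 and was not called (adjusted p = 0.0537). With library size alone the values were larger, at 1.41 and 1.90. Severe and moderate mice did not overlap on the TMM scale, with moderate mice higher, but the difference of -0.20 (95% interval -0.57 to 0.17) was not called (adjusted p = 0.357). Its sign turned with library size alone (0.49, adjusted p = 0.0238) and on TPM, so which model had more Fst depended on the scaling.

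Fstl3, a close relative of follistatin, was under 1 CPM in every mouse. It was at 0.311, 0.241 and 0.474 CPM in control mice, 0.252, 0.483 and 0.424 CPM in moderate mice and 0.654, 0.495 and 0.918 CPM in severe mice. Moderate and control mice overlapped, and each severe mouse was above each mouse of both. The log2 fold change was 0.16 (SE 0.42, adjusted p = 0.773) in the moderate and 1.00 (SE 0.38, adjusted p = 0.0305) in the severe model. The severe call was lost without control mouse 1127 (0.92, adjusted p = 0.088), control mouse 1246 (0.78, adjusted p = 0.128) or severe mouse 1079 (0.74, adjusted p = 0.125), and with DESeq2 (0.98, adjusted p = 0.0638). Between the severe and moderate models Fstl3 differed by 0.83 (SE 0.35, adjusted p = 0.0592), and by 1.02 without severe mouse 1066 (adjusted p = 0.0372). Prss57, the gene of the opposite strand that was chosen here after its overlap was seen, also rose in the severe model (0.490 ± 0.0347 CPM in control and 0.901 ± 0.168 CPM in severe mice, SD, n = 3, log2 fold change 0.87, SE 0.26, adjusted p = 0.00864). The part of this overlap in the Fstl3 result was not tested.

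The RNAs of the 3 member receptors fell by unequal amounts on the TMM scale. The other receptor genes of the pathway did not all fall. In severe mice Tgfbr1 (0.51, adjusted p = 7.24e-04) and Acvr1 (0.80, adjusted p = 0.00141) were called higher. Acvr1c was called lower in the severe (-1.75, adjusted p = 0.00553) and the moderate model (-1.19, adjusted p = 0.0491), though moderate and control mice overlapped. With library size alone, Acvr1c was not called lower in severe mice. Tgfbr3 was not called under TMM, but its mean TPM was 6.88 in control and 13.85 in severe mice, without overlap. Acvr2b, a type II receptor with high affinity for myostatin, was at 7.93, 6.79 and 8.01 CPM in control mice, 1.77, 2.52 and 1.89 CPM in moderate mice and 0.744, 0.826 and 1.09 CPM in severe mice. The 3 groups did not overlap and were ordered from control to severe. Its log2 fold change was -1.88 (SE 0.17, adjusted p = 7.38e-07) in the moderate model, -3.09 (SE 0.18, adjusted p = 3.05e-09) in the severe model and -1.21 (SE 0.20, adjusted p = 1.72e-04) between them. With limma on log2(TPM + 1) the difference between the models was -0.28 and was not called (adjusted p = 0.0915). Acvr1b, which encodes the type I receptor ALK4, was at 64.1, 58.1 and 46.1 CPM in control mice, 17.7, 18.0 and 19.8 CPM in moderate mice and 13.9, 12.6 and 13.3 CPM in severe mice. It was 3.03-fold lower in the moderate model (log2 fold change -1.60, SE 0.20, adjusted p = 2.73e-05) and 4.22-fold lower in the severe model (-2.08, SE 0.20, adjusted p = 1.25e-06). Severe mice were all below moderate mice on this scale, but the difference of -0.48 was not called (SE 0.20, adjusted p = 0.0649), and library size alone turned it to 0.22 (adjusted p = 0.369).

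Acvr2a, the other type II receptor, fell least of the 3 on the TMM scale. It was at 66.9, 51.9 and 75.6 CPM in control mice, 33.3, 32.7 and 36.3 CPM in moderate mice and 32.0, 31.5 and 30.5 CPM in severe mice. All moderate and severe mice were below all control mice, and severe mice were just below moderate mice. The log2 fold change was -0.93 (SE 0.12, adjusted p = 1.92e-05) in the moderate and -1.05 (SE 0.12, adjusted p = 2.39e-06) in the severe model, and library size alone gave -0.32 (adjusted p = 0.0448), under the fold threshold, and 0.26 (adjusted p = 0.0806), with the sign flipped. Between the severe and moderate models it differed by -0.12 (95% interval -0.38 to 0.14, adjusted p = 0.42), which scaling by library size turned to 0.58 (adjusted p = 0.00131). Orc4, which shares exon sequence with it, was at 20.8 ± 0.959 CPM in control and 17.9 ± 0.757 CPM in severe mice (SD, n = 3).

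**Figure D2:**
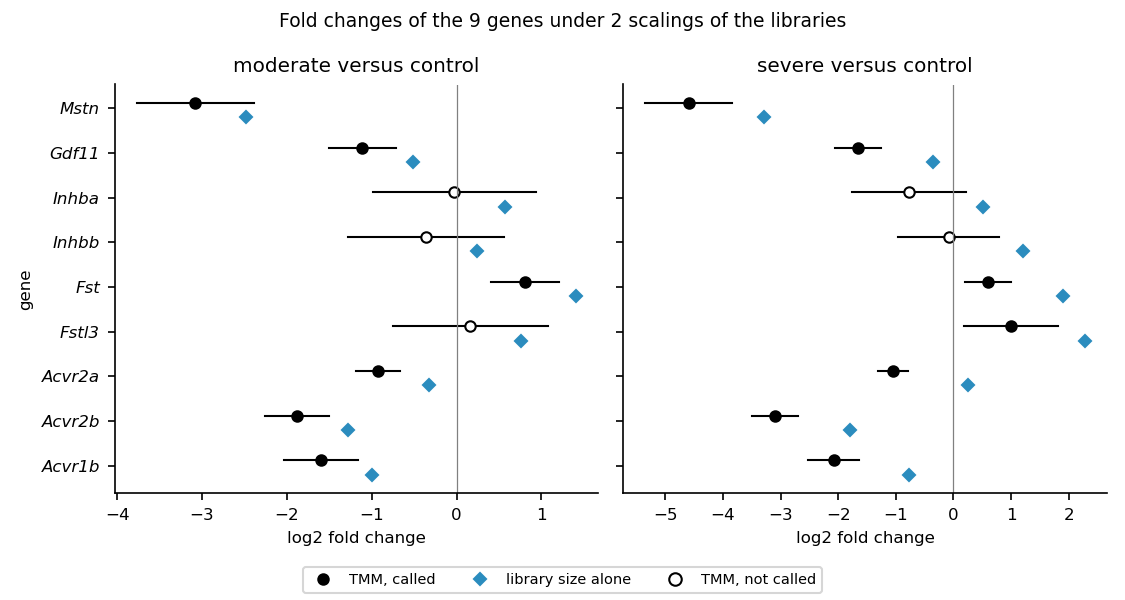
Log2 fold change against control of the 9 genes in the moderate (left) and severe (right) model. Circles are TMM-scaled values with 95% intervals, filled where called, and diamonds are the values with library size alone; Mstn, Acvr2b and Acvr1b stay below 0 and Fst above 0 under both, while Acvr2a in the severe model lies at -1.05 under TMM and at 0.26 under library size alone.

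Under every scaling tried (TMM, median-of-ratios factors, DESeq2's, library size alone, TPM), Mstn, Acvr2b and Acvr1b were called lower and Fst higher than control in both models. Gdf11, Acvr2a, Inhbb and Fstl3 lost, gained or flipped a call with the scaling. In the severe model Mstn ranged from -4.80 to -3.04, Acvr2b from -3.27 to -1.26 and Acvr1b from -2.22 to -0.77 over all alternatives.

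Between the severe and the moderate model, Mstn, Gdf11 and Acvr2b were called lower and none of the 9 higher. Of all genes tested, 18.8% were called lower and 17.6% higher in this comparison. Severe and moderate mice did not overlap for 7 of the 9 genes, against 61.3% of all genes. The median log2 fold change of the 9 genes was -0.48.

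Between FLExD and control mice none of the 9 genes was called, and edgeR called 1 of 16679 genes (0.00600%). Mstn was at 43.3, 44.6 and 71.0 CPM in FLExD mice 1358, 1367 and 1378, within a log2 difference of -0.27 (95% interval -0.89 to 0.35) from control. Fst was at 4.43, 3.52 and 4.97 CPM and differed by -0.13 (-0.56 to 0.29). FLExD and control mice overlapped for all 9 genes, whereas 8.60% of all genes did not overlap. Acvr2a, at 49.3, 48.5 and 59.3 CPM in FLExD mice, was the single member under 0.05 before adjustment (edgeR's quasi-likelihood test, log2 fold change -0.31, adjusted p = 1). FLExD mouse 1378 was the highest of its group for 8 of the 9 genes.

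Ratios of TPM within 1 library do not depend on how libraries are scaled to each other, and TPM are per transcript length, so levels of different genes can be set side by side. The Fst to Mstn ratio was 0.0525 in control mice (geometric mean, range 0.0471 to 0.0606), 0.744 in the moderate model (0.512 to 1.03) and 1.77 in the severe model (1.68 to 1.87). There was thus 19.0 times as much Mstn as Fst RNA in control muscle, and in every severe mouse Fst RNA exceeded Mstn RNA. The log2 ratio rose by 3.83 (SE 0.31), or 14.2-fold, in the moderate and by 5.08 (SE 0.12), or 33.8-fold, in the severe model, and the groups were separate. With 3 mice against 3, the exact permutation test can give no two-sided p under 0.10, and p = 0.1 for both. Of 20 such comparisons (5 ratios, 4 contrasts), 14 had separate groups and an exact p = 0.1, which became 0.143 after Benjamini-Hochberg adjustment.

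Between the paralogous ligands, the log2 Mstn to Gdf11 ratio was 3.34 ± 0.276 in control, 1.40 ± 0.317 in moderate and 0.51 ± 0.184 in severe mice (SD, n = 3), a 3.84-fold and a 7.14-fold drop against control (exact p = 0.1 each). The ratio was lower in each moderate and severe mouse than in any control mouse. Between the type II receptors, the log2 Acvr2b to Acvr2a ratio was -1.58 ± 0.142, -2.51 ± 0.345 and -3.61 ± 0.320, so that the severe model had 12.2 times as much Acvr2a as Acvr2b RNA, against 2.98 times in control (exact p = 0.1 for each contrast). In FLExD mice this ratio was -1.30 ± 0.126, above all control mice (exact p = 0.1). The Fst to summed Inhba and Inhbb ratio rose 2.08-fold in the moderate and 1.96-fold in the severe model (exact p = 0.1 each), and the 2 models overlapped (exact p = 0.9). FLExD mice, with log2 ratios of 2.06, 1.86 and 0.75, overlapped with control (exact p = 0.3) and also with both models. Inhba and Inhbb had low TPM, which hold estimates as well as reads.

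**Figure D3:**
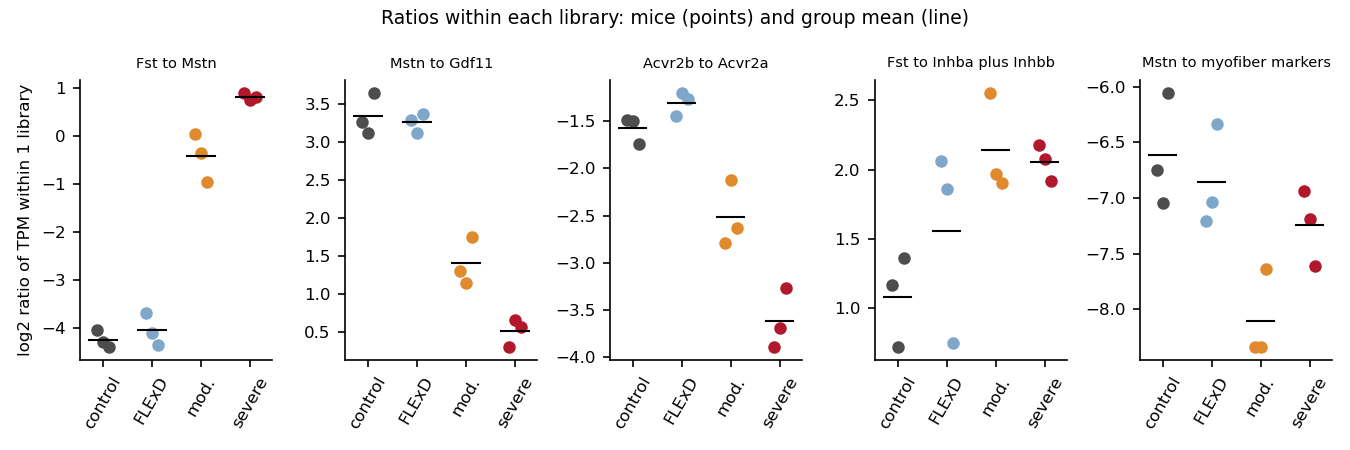
Log2 ratios of TPM within each library (vertical axis, own range in each panel) for 5 pairs in control, FLExD, moderate and severe mice, with each point 1 mouse and the line the group mean. Fst to Mstn goes from -4.25 in control to 0.83 in severe mice, while Mstn to the myofiber markers is lowest in the moderate model.

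Markers of mature fibers fell with Mstn. All 8 myofiber markers (among them Acta1, Ckm and Myh4) were called lower in the severe model and 6 of 8 in the moderate model, with median log2 fold changes of -3.79 and -1.56, and none was at 0. Their summed level ranged from 134372 to 178767 CPM in control, 56501 to 68616 CPM in moderate and 8403 to 15242 CPM in severe mice. Relative to the geometric mean of these markers in the same library, Mstn was 2.81-fold lower in the moderate model than in control (log2 ratio -8.10 ± 0.406 against -6.61 ± 0.507, SD, n = 3, exact p = 0.1, groups separate). In the severe model the ratio was -7.24 ± 0.339 and overlapped with control (1.55-fold lower, exact p = 0.2), and it was 1.81-fold higher than in the moderate model (exact p = 0.1).

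Markers of other cells moved in the same comparisons. All 5 macrophage markers analysed were called higher in both models, and their summed level went from 38.5 to 44.7 CPM in control to 273 to 362 CPM in moderate and 633 to 697 CPM in severe mice. The 4 markers of regenerating fibers (Myh3, Myh8, Myog and Myod1) summed to 18.9 to 26.9 CPM in control, 323 to 579 CPM in moderate and 1225 to 1735 CPM in severe mice, with 3 called higher in moderate and 4 in severe mice. Satellite cell markers summed to 6.37 to 8.96, 18.8 to 25.6 and 45.7 to 57.7 CPM, with 3 of 4 called higher in each model. Fibroadipogenic markers summed to 402 to 1298, 2082 to 2247 and 3675 to 4839 CPM, with 3 of 6 called higher in the moderate and 2 of 6 in the severe model, where 1 of 6, Cd34, was called lower (-0.61, adjusted p = 3.24e-04). Most of this sum was collagen RNA, with control and severe means of 328 and 3128 CPM for Col3a1 and 239 and 802 CPM for Col1a1. Unlike Col3a1, Col1a1 was not called in severe mice (adjusted p = 0.0634). Its control mice 1127, 1246 and 1349 were at 54.6, 114 and 549 CPM, and severe mouse 1066 was at 557 CPM. The control and severe means were 58.0 and 93.1 CPM for Pdgfra, 22.9 and 28.5 CPM for Ly6a and 29.7 and 32.1 CPM for Dpt. For Cd34 they were 67.6 and 44.4 CPM. Endothelial markers summed to 164 to 177, 109 to 143 and 85.9 to 96.3 CPM, with 2 of 5 and 4 of 5 called lower under TMM. The direction depended on the scaling, also for Cd34. On the TPM scale the control and severe means were 15.45 and 23.93 for Pecam1, 2.91 and 6.43 for Vwf and 25.36 and 38.48 for Cd34. Cdh5 (12.55 and 13.08) and Tek (5.41 and 5.89) changed little on that scale, and Kdr (6.07 and 2.76) was lower. Adipocyte markers summed to 37.7 to 49.3, 13.6 to 33.6 and 8.18 to 22.9 CPM, with 0 and 2 of 3 called lower, and nerve and Schwann cell markers to 6.32 to 13.6, 5.97 to 21.0 and 1.96 to 3.92 CPM, again with 0 and 2 of 3 called lower. None of these markers was at 0 in a library, and their part in the changes of Fst, Fstl3, Gdf11 and the receptors was not tested. Xist was detected and the Y-linked genes summed to at most 23 counts in each library, so the groups did not differ in sex by this measure.

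The order of the genes within a group, as mean TPM over 3 mice, also differed between groups. In control muscle Mstn led at 42.2 ± 16.2 TPM (SD), followed by Acvr1b (13.1 ± 2.25) and Acvr2a (12.7 ± 2.50), which overlapped, then by Acvr2b (4.24 ± 0.455) and Gdf11 (4.02 ± 0.723), which overlapped, and Fst (2.19 ± 0.676). Inhbb, Fstl3 and Inhba were last, at 0.553, 0.457 and 0.450 TPM, with overlapping ranges. FLExD mice had the same order down to Fst. In the moderate model Acvr2a led at 9.31 TPM, ahead of Mstn (6.97) and Acvr1b (6.10), which overlapped, and of Fst (5.04), and Gdf11 (2.60) and Acvr2b (1.66) overlapped. In the severe model Acvr2a was at 14.4 ± 1.62 TPM, ahead of Fst (7.16 ± 0.728) and Acvr1b (7.08 ± 0.870), which overlapped, and Mstn was the fourth at 4.05 ± 0.586 TPM. On the TPM scale Acvr2a overlapped between severe (12.6 to 15.4 TPM) and control mice (10.5 to 15.5 TPM).

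The other genes of the pathway were described from a list of 42, of which 39 were tested. Against control, 6 rose and 10 fell in moderate mice (median log2 fold change -0.11), and 11 rose and 17 fell in severe mice (median -0.18), beside 24.4% higher and 17.0% lower of all genes for moderate mice and 32.9% and 27.9% for severe mice. Between the severe and moderate models 6 were higher and 9 lower, and between FLExD and control mice none was called. This split depended on the scaling, since library size alone gave 18 higher and 3 lower for moderate mice and 27 and 4 for severe mice, while limma on TPM with 1 added gave 12 and 4, and 24 and 3. Of all 16679 genes, library size alone called 8764 higher and 752 lower for moderate mice, and 12580 and 1070 for severe mice. The 4 that stayed lower in severe mice with library size alone were Wfikkn2, Smad6, Fbxo32 and Bmp7. Changes under TMM are therefore relative to the bulk of genes.

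Of 8 other antagonists and ligand-binding proteins, Wfikkn2, which encodes a secreted protein that binds myostatin and GDF11, fell with Mstn. It was at 6.17, 5.93 and 5.50 CPM in control mice, 1.61, 2.14 and 1.44 CPM in moderate mice and 0.451, 0.519 and 0.749 CPM in severe mice. The groups did not overlap, and the log2 fold change was -1.76 (SE 0.18, adjusted p = 2.33e-06) in the moderate and -3.35 (SE 0.20, adjusted p = 3.41e-09) in the severe model, lower under every scaling tried. Nbl1, a secreted antagonist of BMPs, rose in both models (0.77 and 0.78, adjusted p = 4.08e-05 and 1.58e-05). Dcn, which encodes the matrix proteoglycan decorin, fell in the severe model (-0.79, adjusted p = 2.88e-05) and was lower there than in the moderate model (-0.63, adjusted p = 5e-04), but was 0.51 above control with library size alone. Inha, the inhibin alpha subunit gene, fell in both (-0.95 and -0.64, adjusted p = 0.00684 and 0.031), while library size alone left an uncalled -0.34 for moderate mice and turned the severe value to 0.66. FLExD mice, at 0.935, 1.14 and 0.916 CPM, were also below all control mice for Inha (1.45, 1.98 and 1.33 CPM). That log2 difference of -0.67 was not called, but it was close in size to the severe value. Among the proteases that free the mature ligand from its propeptide, Bmp1 (0.79 and 1.28, adjusted p = 5.6e-05 and 2.01e-07) and Tll1 (0.98 and 1.16, adjusted p = 0.00538 and 9.27e-04) rose in both models. Furin, a convertase that cuts the precursor, was not called against control (-0.14 and 0.49, adjusted p = 0.304 and 0.00105). Its severe value was just under the fold threshold, and severe and control mice did not overlap. Furin was called higher in the severe than in the moderate model (0.63, adjusted p = 2.94e-04). On the TPM scale its mean was 9.25 in control and 29.26 in severe mice.

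Of the intracellular signal carriers, Smad3 fell in both models on the TMM scale. It was at 60.1, 71.1 and 93.7 CPM in control mice, 23.0, 23.1 and 25.6 CPM in moderate mice and 29.6, 22.5 and 21.1 CPM in severe mice. Both models were below all control mice, by -1.65 (SE 0.16, adjusted p = 2.04e-06) and -1.62 (SE 0.16, adjusted p = 8.48e-07), and library size alone left -1.05 and an uncalled -0.31. Smad2, the other SMAD that these receptors phosphorylate, was at 22.8 ± 1.24, 22.1 ± 1.67 and 23.4 ± 1.12 CPM (SD, n = 3), with log2 fold changes of -0.05 and 0.04 (adjusted p = 0.673 and 0.679), but with library size alone it was called higher in both models (0.56 and 1.35). Smad4, the shared partner, fell in both models (-0.70 and -0.64, adjusted p = 7.81e-06 and 8.24e-06), but library size alone left an uncalled -0.10 for moderate mice and flipped the severe value to 0.67. Zfyve9, which encodes the anchor that brings SMAD2 and SMAD3 to the receptor, fell in both (-0.73 and -1.61, adjusted p = 1.46e-04 and 3.26e-08), with neither called with library size alone (-0.12 and -0.31). Smad7, the inhibitory SMAD, was not called (0.01 and -0.26, adjusted p = 0.953 and 0.149). This too depended on the scaling, since on the TPM scale its mean was 2.79 in control and 5.22 in severe mice, without overlap. In all, 4 of 9 genes of this list were lower in each model and 1, Skil, was higher in the severe model.

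In the BMP branch, 1 of 10 tested genes rose and 3 fell in moderate mice, and 3 rose and 5 fell in severe mice. Id2, a target of BMP signalling, rose in both models (1.32 and 2.56, adjusted p = 2.84e-04 and 1.37e-07), and the inhibitory Smad6 fell in both (-1.81 and -1.82, adjusted p = 1.63e-06 and 4.18e-07). The BMP receptor genes Bmpr1a and Bmpr1b were lower in both models (Bmpr1a -1.05 and -1.38, Bmpr1b -1.02 and -1.79, for moderate and severe mice), and neither was called in either model with library size alone (Bmpr1a -0.45 and -0.07, Bmpr1b -0.42 and -0.49). Bmp7 was at 0.474 ± 0.0521 CPM in control mice and had 0 counts in all 3 severe mice, which is at least 6.54-fold lower against a floor of 3 counts per library.

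Genes often read downstream of the pathway went in both directions. Cdkn1a, which encodes the cell cycle inhibitor p21, rose by 2.60 and 3.12 (adjusted p = 1.3e-06 and 6.32e-08). The atrophy-linked ubiquitin ligase genes Fbxo32 and Trim63 fell in the severe model (-2.59 and -1.68, adjusted p = 1.02e-04 and 1.86e-05) and were not called in the moderate model (-0.85 and -0.35, adjusted p = 0.0622 and 0.188). Scaled by library size only, Fbxo32 was still called lower in severe mice (-1.30) and Trim63 was not (-0.39, adjusted p = 0.0757). For both, the difference between the severe and moderate models was itself called (-1.75 and -1.32, adjusted p = 0.00252 and 3.24e-04). Igf1, a growth factor for muscle, rose by 0.66 and 1.39 (adjusted p = 0.0113 and 2.86e-05).

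**Figure D4:**
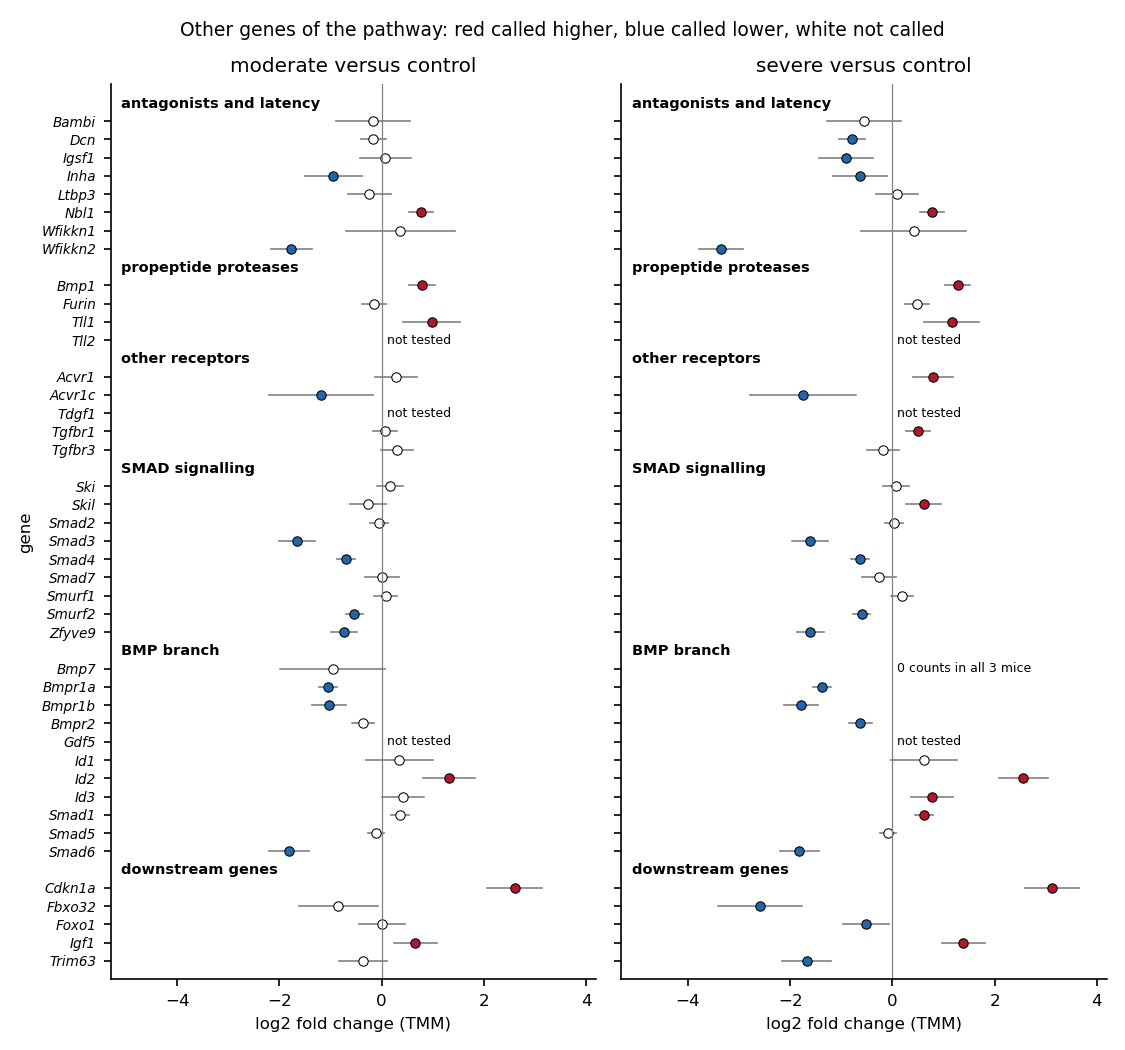
Log2 fold change (TMM) with 95% interval of the 42 other pathway genes against control in the moderate (left) and severe (right) model, grouped by role, with red called higher, blue called lower and white not called. Wfikkn2, Smad3 and Smad6 lie at the left and Cdkn1a and Id2 at the right in both panels; Bmp7 had 0 counts in severe mice and has no point there.

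Among the genes most like Mstn over the 12 mice, by the root mean square (RMS) difference of centred log2 CPM among 12316 genes, were Prkab2 (RMS 0.301), Sh3rf2 (0.334), Fbp2 (0.344) and Gdap1 (0.352), against a median of 1.95 over all genes. Their log2 fold changes in the severe model were between -4.76 and -4.00. Fbp2 encodes the muscle form of fructose bisphosphatase and was at 56.8 CPM in control and 3.55 CPM in severe mice. The genes most like Fst were Trim12a (0.141), Zfhx4 (0.145), Gamt (0.148), Chrnb1 (0.162) and Tbc1d5 (0.163), against a median of 0.597. Their log2 fold changes lay between 0.73 and 0.83 in moderate and between 0.57 and 0.77 in severe mice. Chrnb1 encodes a subunit of the muscle acetylcholine receptor, and Gamt an enzyme of creatine synthesis.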

How the data were processed

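RNA-seq libraries (poly(A) selection, random priming, single-end 50 base reads) of gastrocnemius muscle from 12 mice, 3 per group, were used, with groups taken from the sample labels and age and day from the study's text. The authors mapped reads with RSEM 1.2.4, which ran a modified Bowtie call, against mm10 transcripts merged from UCSC, Ensembl and MISO, sent unaligned reads to TopHat 2.0.8b, and deposited expected counts and TPM per gene without further scaling. Of 164417 entries with 0 counts, 164142 had a TPM above 0 in the deposited table, so low TPM hold estimates as well as reads.

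Expected counts were rounded and tested with edgeR 4.0.16 in R 4.3.3 by the robust quasi-likelihood F-test after filterByExpr and TMM scaling. All 4 groups entered 1 fit, and p-values were adjusted by Benjamini-Hochberg over 16679 genes. Calls needed an adjusted p under 0.05 and a log2 fold change of 0.5 or more in size. Standard errors were derived from the F statistic. TPM ratios within a library were compared by exact two-sided permutation tests. The scripts were tested on simulated data. Depth was 23796902 to 29136403 counts per mouse, and floors of 3 counts cover counting error only. Sequence positions came from GENCODE M21, and promoters from RefSeq. The annotation behind the counts is older, so the overlaps given are those of M21.

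Alternatives were DESeq2 1.42.0, library size alone, median-of-ratios factors, limma 3.58.1 on log2(TPM + 1) and log2(TPM + 0.1), other filters and thresholds, only the 2 groups compared, and each mouse left out in turn. The counts over the other pathway genes under these settings were added after seeing the data. Named genes are the 9 members, the listed pathway and marker genes, and for Mstn and Fst the 5 genes with a mean of at least 50 counts and the most similar profile. A few genes that these rules would name are not reported here. The members and lists were chosen with earlier results of these data known.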

Additional observations from a re-analysis of the deposited data

How the results depend on the processing

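The calls of Mstn, Acvr2b and Acvr1b as lower than control, in both models, and of Fst as higher in the moderate model, held without any 1 mouse and under every scaling. The numbers of members called changed by more than 1.5 times as follows. In the moderate model, a log2 fold of at least 1 left 0 higher, and limma on log2(TPM + 1) left 3 lower. In the severe model, 1 was higher with DESeq2, 0 with a log2 fold of at least 1 and 1 at an adjusted p under 0.01, and leaving out 1 mouse gave 0 to 2 (0 without control mouse 1246, 1 without control mouse 1127 or severe mouse 1079). The severe model had 3 lower with library size alone and 3 with limma on TPM with either 1 or 0.1 added. Between the severe and moderate models, 3 were higher with library size alone, 2 with limma on log2(TPM + 1), 3 with log2(TPM + 0.1) and 1 with a mean of at least 10 counts, and leaving out 1 mouse gave 0 to 1 (1 without severe mouse 1066), while 0 were lower with limma on either TPM scale. Smaller changes were 4 lower in moderate mice (library size alone, log2(TPM + 0.1), a log2 fold of at least 1), 3 higher in severe mice (library size alone, log2(TPM + 0.1)) and, between the models, 2 lower (library size alone, a log2 fold of at least 1, an adjusted p under 0.01, and without each of 5 of the 6 mice in turn). Among values called under either setting, 4 flipped in direction, and uncalled severe minus moderate values of Fst (0.49, 0.43 and 0.50) and Acvr1b (0.22, 0.18 and 0.21) turned positive with library size alone, log2(TPM + 1) and log2(TPM + 0.1). Inhbb in the severe model was 1.21 with library size alone and 0.98 with log2(TPM + 0.1). The uncalled Inhba value in the severe model was 0.52 with library size alone, 0.10 with log2(TPM + 1) and 0.29 with log2(TPM + 0.1). Acvr2a in the severe model was 0.26 with library size alone, 0.18 with log2(TPM + 1) and 0.19 with log2(TPM + 0.1), and between the models 0.58, 0.58 and 0.62. Gdf11 between the models was 0.15, 0.10 and 0.14. No paired analysis was possible because the groups share no replicate number.

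Depth limits Inhba, Inhbb and Fstl3 most, each near or under 1 CPM. With 3 mice per group, an exact test of a single ratio cannot pass 0.05. Tamoxifen was given only to the moderate and severe mice, so its own effect on these genes was not measured here.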
